A study of Mus musculus with 6 samples.

Results

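The transcripts described here come from the imprinted region between the genes Dlk1 and Dio3 on mouse chromosome 12, measured on arrays in embryonic stem cells (ESCs). They were defined as the array features whose annotated symbol is Dlk1, Meg3, Rian, Mirg, Dio3, Mir341, Mir329, Mir127, Mir665 or Mir337. Of these 10 genes, 9 had a feature of their own, 1 each, which makes 9 of the 34760 features of the array. Mirg had none and is named only by a feature that also names Mir410. A further feature names Rian together with the small nucleolar RNA gene AF357355 and is given separately. The region was chosen from measured values, because Rian was already known to be higher in the arrays labelled GCSF. Member values that involve those arrays are therefore given as a description with no p-value, and nothing is read from counts of calls on them. The comparison of LIF/PD with control keeps its p-values, but it is not fully separate from that choice. It uses the same control arrays, and its spread is estimated over all arrays, those labelled GCSF included.

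All 6 samples were C57Bl/6 ESCs carrying the chimeric receptor GRgp-Y118F. In it, the outer part of the receptor for granulocyte colony-stimulating factor (GCSF) is understood to be joined to the signalling part of gp130. Y118F names a change of a tyrosine to phenylalanine, so the receptor is not an unchanged one. The part of this change in the results was not tested. There were 2 arrays labelled LIF/PD, for leukaemia inhibitory factor (LIF) with 1 uM PD0325901, a MEK inhibitor. Another 2 were labelled GCSF, and 2 came from untreated controls. The treated cells were serum-starved for 6 h and then exposed for 1 h, and no source used here says whether controls were starved too. The receptor was stably expressed. Nor do the sources say if the line was 1 clone, or if replicates were grown apart, so a p-value here covers the spread between arrays, which may be technical.

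Genes of this region are read from 1 parental chromosome. Dlk1, Rtl1 and Dio3 code for proteins and are expressed from the paternal copy. Meg3, Rian and Mirg are long noncoding RNAs of the maternal copy, and many microRNAs and small nucleolar RNAs lie within or between them. In mouse stem cells the region is best known because its maternal RNAs are silenced in some lines, which limits what those cells can form. Most of its noncoding RNA is thought to arise from transcription that starts at Meg3 and runs through Rian towards Mirg.

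The 5 microRNA members are shown first, since their features lie along that path. Both mature arms of each are given from RefSeq (GRCm38.p6, plus strand), 5′ to 3′, with the seed (bases 2 to 8), which pairs with targets, in capitals.
mmu-miR-341-5p, chr12:109611521-109611541: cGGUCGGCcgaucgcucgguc
mmu-miR-341-3p, chr12:109611556-109611576: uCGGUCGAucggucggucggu
mmu-miR-329-5p, chr12:109713503-109713524: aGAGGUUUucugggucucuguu
mmu-miR-329-3p, chr12:109713541-109713562: aACACACCcagcuaaccuuuuu
mmu-miR-127-5p, chr12:109592854-109592875: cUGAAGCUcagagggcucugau
mmu-miR-127-3p, chr12:109592888-109592909: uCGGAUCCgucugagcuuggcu
mmu-miR-665-5p, chr12:109586331-109586356: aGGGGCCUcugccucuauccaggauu
mmu-miR-665-3p, chr12:109586368-109586387: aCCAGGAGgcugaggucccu
mmu-miR-337-5p, chr12:109585818-109585839: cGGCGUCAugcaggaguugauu
mmu-miR-337-3p, chr12:109585850-109585871: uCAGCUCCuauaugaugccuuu
No seed was shared between these 10 arms or with another microRNA annotated in the region, and mmu-miR-329-3p alone shared its seed with 1 other of the 1679 mature mouse microRNAs in that table. The hairpin of Mir341, which RefSeq places inside Rian, is shown because it is built from a repeated word, GGUC, here in capitals.
Mir341 hairpin, chr12:109611500-109611595: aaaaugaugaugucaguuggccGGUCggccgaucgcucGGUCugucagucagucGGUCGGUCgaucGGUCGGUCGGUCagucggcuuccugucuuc
GGUC occurs 7 times in its 96 bases, and 1 of the 1005 mouse hairpins in the table, that of Mir341, held it so often. The word was picked from this same hairpin, so nothing is read from that rank. A feature for a hairpin can also pair with the longer RNA it is cut from, and these cannot be told apart here.

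Before the members, the labels were checked on genes that respond to these pathways. The cytokine feedback gene Socs3 rose in both treatments, by 2.62 ± 0.07 log2 in the LIF/PD arrays and 3.13 ± 0.07 in the GCSF arrays over control (SE, n = 2 arrays each, limma, adjusted p = 1.21e-06 and 2.70e-07). Dusp6, a phosphatase gene that depends on ERK signalling, differed from control by 0.03 ± 0.04 in the LIF/PD arrays (limma, adjusted p = 0.937) and fell by 1.56 ± 0.04 in the GCSF arrays (limma, adjusted p = 5.66e-07). Spry4, another gene kept on by ERK, differed by 0.05 ± 0.06 in the LIF/PD arrays and fell by 1.83 ± 0.06 in the GCSF arrays. A MEK inhibitor is known to lower both genes, so these values go against the labels, and every direction below holds for the arrays labelled LIF/PD or GCSF. The cytokine-induced gene Bcl3 rose by 0.55 ± 0.05 in LIF/PD and 1.35 ± 0.05 in GCSF arrays (limma, adjusted p = 0.00791 and 4.03e-06), the LIF/PD call ending without either control or either LIF/PD array. Stat3, the transcription factor downstream of gp130, rose by 0.61 ± 0.05 and Egr1, an early ERK target, fell by 1.49 ± 0.08 in GCSF arrays. In LIF/PD arrays Stat3 lay at 0.24 ± 0.05 and Egr1 at -0.18 ± 0.08 (limma, adjusted p = 0.258 and 0.752).

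The 8 ESC markers passed the filter on low values. Tdgf1, a Nodal co-receptor gene, rose in GCSF arrays by 0.30 ± 0.03 over control (limma, adjusted p = 0.00190). Against GCSF arrays, LIF/PD arrays were lower in Tdgf1 (-0.17 ± 0.03) and higher in Utf1 (0.23 ± 0.03; limma, adjusted p = 0.0434 and 0.0137), calls that ended without any 1 of the 6 arrays for Tdgf1 and without any 1 of the 4 compared for Utf1. Their part in the results was not tested. Markers were also summed on the linear scale, where the brightest genes weigh most. By mean log2 over all arrays these were Fn1 (13.11) among fibroblast markers, and Krt8 (11.81) and Krt18 (10.61) among trophoblast markers. The 9 fibroblast markers came to 15954 and 16060 in LIF/PD, 16712 and 16205 in GCSF, and 16189 and 16258 in control arrays. The GCSF and control ranges overlapped, and both LIF/PD arrays lay below both controls. Among the fibroblast markers Col3a1, a collagen gene, was higher in the GCSF arrays by 0.29 ± 0.05 (limma, adjusted p = 0.0410). That call ended without any 1 of the 6 arrays, and the part of these values in the results was not tested. None of the 4 tested endoderm and 5 tested trophoblast markers passed against control with limma, in LIF/PD arrays (1 and 0 at an unadjusted p under 0.05) or in GCSF arrays (0 and 4). Over all tested features, 6.59% had such an unadjusted p for LIF/PD and 12.1% for GCSF. The 6 trophoblast markers summed to 6013 and 6186 in the LIF/PD arrays, 5415 and 5762 in the GCSF arrays, and 6132 and 6131 in the control arrays, so both GCSF arrays were lowest, and the part of this in the results was not tested either. The 8 ESC markers summed to 44940 and 44152 in LIF/PD, 44215 and 44444 in GCSF, and 43886 and 42877 in control arrays. The 7 endoderm markers summed to 1171 and 1173 in LIF/PD, 1144 and 1161 in GCSF, and 1148 and 1125 in control arrays. Both treatments lay above both controls in the ESC sums, and the LIF/PD arrays did in the endoderm sums. The part of these sums in the results was not tested. The median of the unannotated control block of the array was 6.58 and 6.68 in the LIF/PD arrays, 6.84 and 6.71 in the GCSF arrays, and 6.66 and 6.71 in the control arrays. The label-check genes Socs3, Dusp6 and Spry4 kept their calls against control under the 15 alternatives tried.

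Rian, a noncoding RNA that hosts small nucleolar RNAs, was the member with the largest difference. Its log2 intensity was 6.95 and 7.17 in the LIF/PD arrays, 8.16 and 8.23 in the GCSF arrays, and 6.91 and 6.87 in the control arrays. Both GCSF arrays lay about 1 log2 unit above the other 4, and both LIF/PD arrays lay just above both controls. The GCSF arrays were 1.31 ± 0.08 above control (SE from the fit, n = 2 each), or 2.47-fold if the base of the logarithm is 2. The LIF/PD arrays were 1.14 below the GCSF arrays (-1.14 ± 0.08). Against control the LIF/PD arrays differed by 0.17 ± 0.08, with a 95% interval of -0.02 to 0.36 (limma, adjusted p = 0.780).

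The feature that names both Rian and AF357355, a small nucleolar RNA gene inside Rian, read 8.77 and 8.73 in the LIF/PD arrays, 9.64 and 9.64 in the GCSF arrays, and 8.36 and 8.49 in the control arrays. The 3 groups did not overlap, with the LIF/PD arrays in between. It lay 1.21 ± 0.06 above control in the GCSF arrays and 0.32 ± 0.06 above control in the LIF/PD arrays, where the 95% interval was 0.19 to 0.45 and the call was not made (limma, adjusted p = 0.193). It cannot say which of the 2 genes it reads.

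Meg3, the noncoding RNA at the start of the maternal unit, was measured at 9.46 and 9.68 in the LIF/PD arrays, 9.89 and 10.01 in the GCSF arrays, and 9.67 and 9.79 in the control arrays. The GCSF arrays were the highest, while LIF/PD and control arrays overlapped. Its difference over control was 0.23 ± 0.08 in the GCSF arrays, and in the LIF/PD arrays it was -0.16 ± 0.08 with an interval of -0.34 to 0.02 (limma, adjusted p = 0.780). The feature that names Mirg, the noncoding RNA at the far end, together with Mir410 read 6.60 and 6.27 in the LIF/PD arrays, 6.48 and 6.33 in the GCSF arrays, and 6.38 and 6.29 in the control arrays. Its groups overlapped fully, and it lay below the filter.

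**Figure D1:**
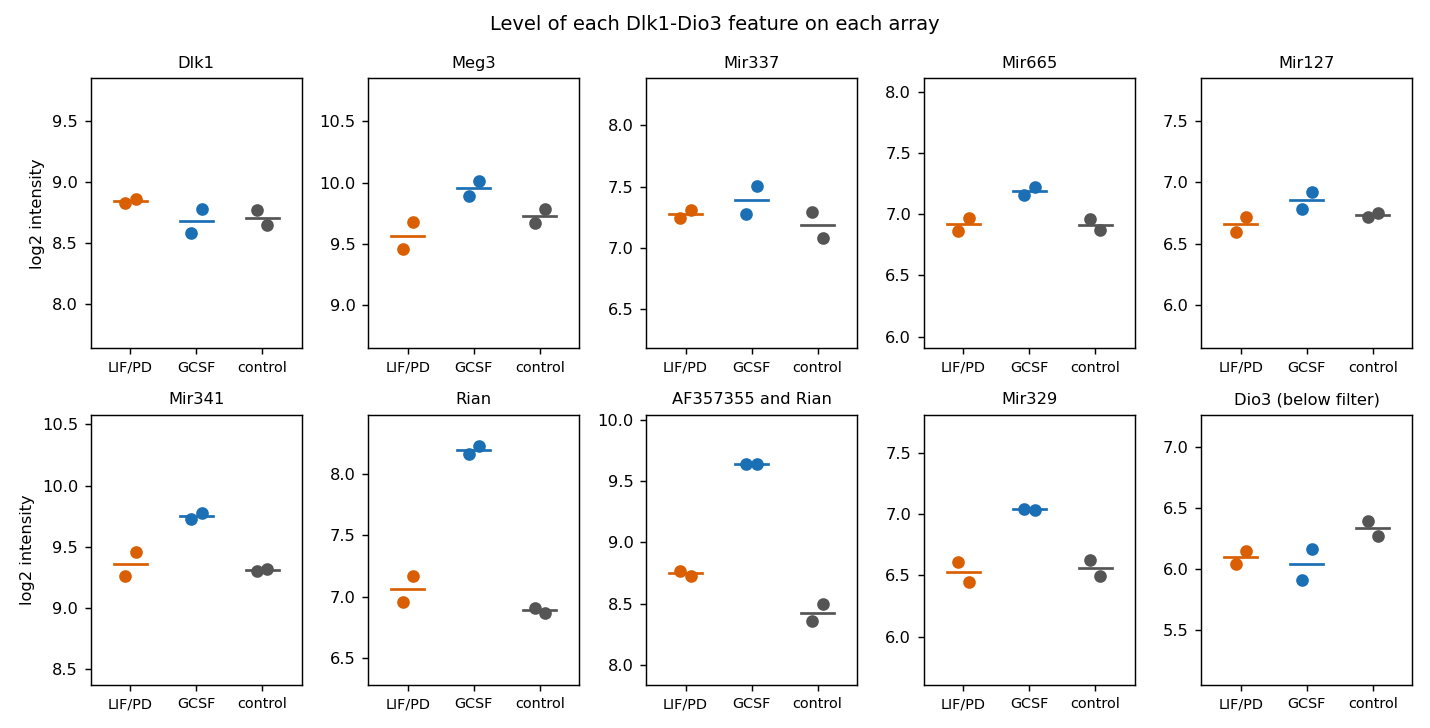
Log2 intensity of each member feature, and of the feature shared by AF357355 and Rian, on each array. Points are arrays, lines are the means of 2 arrays, groups run LIF/PD, GCSF, control, and each panel spans the same range of 2.2 log2 units. The GCSF points stand clear of the rest for both features that name Rian and less so for Mir341 and Mir329.

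Mir341 and Mir329 were the microRNA members with the largest differences. Mir341 read 9.26 and 9.46 in the LIF/PD arrays, 9.72 and 9.78 in the GCSF arrays, and 9.31 and 9.32 in the control arrays. The GCSF arrays were highest by 0.44 ± 0.06 over control, and LIF/PD and control arrays overlapped with a difference of 0.05 ± 0.06 (limma, adjusted p = 0.938). Mir329, from the microRNA cluster beyond Rian, read 6.61 and 6.44 in the LIF/PD arrays, 7.04 and 7.03 in the GCSF arrays, and 6.63 and 6.49 in the control arrays. Again the GCSF arrays stood above the rest, by 0.48 ± 0.09 over control. The LIF/PD arrays differed from control by -0.04 ± 0.09 (limma, adjusted p = 0.968). Mir329 passed the filter, a mean of 6.70 over all arrays, only through its GCSF arrays, and so did Mir127.

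The other 3 microRNA members lie between Meg3 and Rian. Mir665 was 6.86 and 6.97 in the LIF/PD arrays, 7.16 and 7.22 in the GCSF arrays, and 6.96 and 6.87 in the control arrays. Mir127, which in mouse takes part in the control of the paternal gene Rtl1 it lies opposite to, was 6.59 and 6.72 in the LIF/PD arrays, 6.78 and 6.92 in the GCSF arrays, and 6.72 and 6.75 in the control arrays. For both, the GCSF arrays were the highest, by 0.27 ± 0.08 and 0.12 ± 0.08 over control, and LIF/PD and control arrays overlapped. Mir337 was 7.24 and 7.31 in the LIF/PD arrays, 7.28 and 7.51 in the GCSF arrays, and 7.29 and 7.08 in the control arrays, and all 3 groups overlapped. The LIF/PD arrays differed from control by 0.00 ± 0.08 for Mir665, -0.08 ± 0.08 for Mir127 and 0.09 ± 0.10 for Mir337 (limma, adjusted p = 1.00, 0.915 and 0.920).

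In the protein-coding members, Dlk1 and Dio3, the GCSF arrays were not the highest. Dlk1, which encodes a Notch-like membrane protein that restrains differentiation, was 8.83 and 8.86 in the LIF/PD arrays, 8.58 and 8.78 in the GCSF arrays, and 8.77 and 8.65 in the control arrays. The LIF/PD arrays were the highest, and GCSF and control arrays overlapped. Over control the difference was 0.14 ± 0.07 in the LIF/PD arrays (interval -0.03 to 0.31, limma, adjusted p = 0.802) and -0.03 ± 0.07 in the GCSF arrays. Dio3, the deiodinase that inactivates thyroid hormone, lay below the filter at 6.05 and 6.15 in the LIF/PD arrays, 5.91 and 6.17 in the GCSF arrays, and 6.39 and 6.27 in the control arrays. Both treatments lay below control, by differences of -0.24 ± 0.11 for LIF/PD and -0.29 ± 0.11 for GCSF in a fit without the filter, and they share the same 2 controls. Rtl1, which encodes a retrotransposon-derived protein needed in the placenta, differed from control by -0.02 in the LIF/PD arrays and 0.06 in the GCSF arrays.

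In the LIF/PD arrays no member of the 8 tested passed against control with limma, where 0.0650% of all 16912 tested features were called, and 0 of the 8 had an unadjusted p under 0.05, against 6.59% of all tested features. The median difference of the 8 was 0.02, against 0.01 for all tested features. The 8 include Mir329 and Mir127, which passed the filter only through their GCSF arrays. The intervals of 9 members together spanned -0.48 for Dio3 at the low end to 0.36 for Rian at the high end. The feature shared by AF357355 and Rian, not among these counts, lay 0.32 above control, with an interval of 0.19 to 0.45. Its p was 0.000399 unadjusted and 0.193 adjusted (limma). In the comparison of LIF/PD with GCSF arrays, 3 of the 8 (Rian, Mir341 and Mir329) were called lower, where 0.443% of all tested features were called lower and 0.402% higher. In the GCSF arrays the same 3 genes were called higher than control and 0 lower, where 0.804% of all tested features were called higher and 0.367% lower. Both counts involve the contrast through which the region was chosen, so nothing is read from them. The count in the GCSF arrays dropped to 1, Rian, without either control or either GCSF array, and that in the comparison of LIF/PD with GCSF dropped to 1, again Rian, without any array other than the second LIF/PD array. Both GCSF arrays lay above the other 4 arrays in 6 of the 9 members, against 9.72% of the 28187 features outside the control block. That count also rests on the values through which the region was chosen, so nothing is read from it either.

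**Figure D2:**
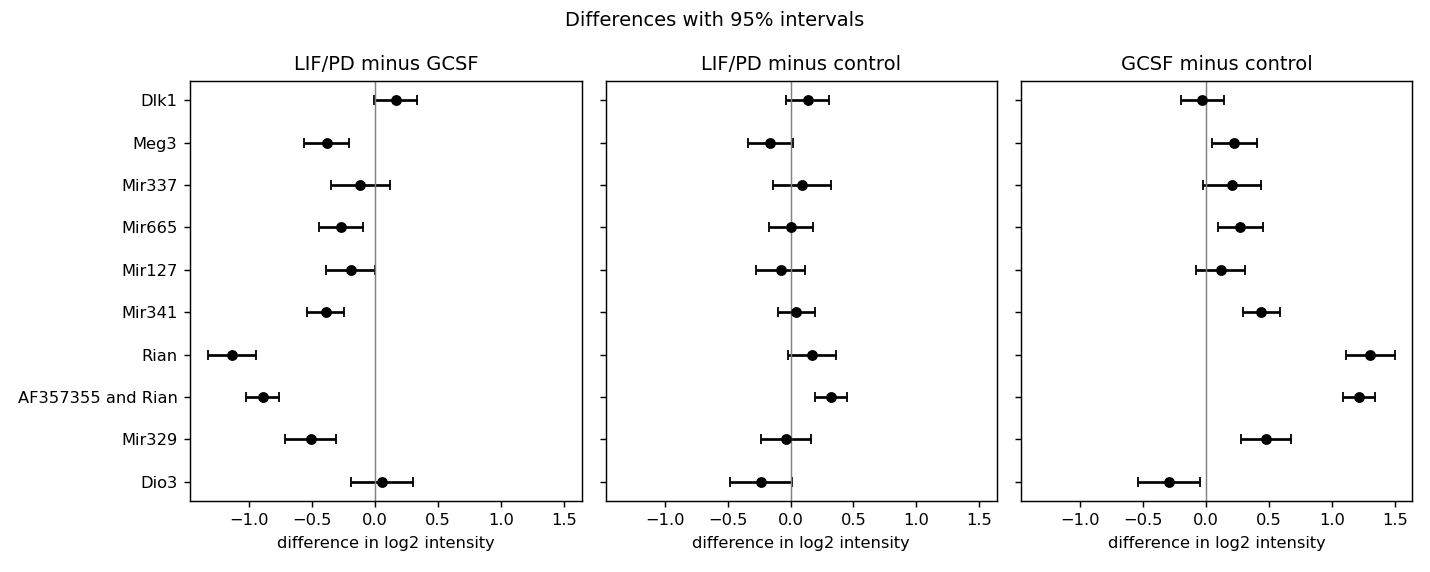
Differences in log2 intensity for each member and the shared Rian feature, in 3 comparisons, with 95% intervals from the fit (n = 2 arrays per group). Intervals of LIF/PD minus control include 0 for every single-gene member, while Rian lies at 1.31 for GCSF minus control and -1.14 for LIF/PD minus GCSF.

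**Figure D3:**
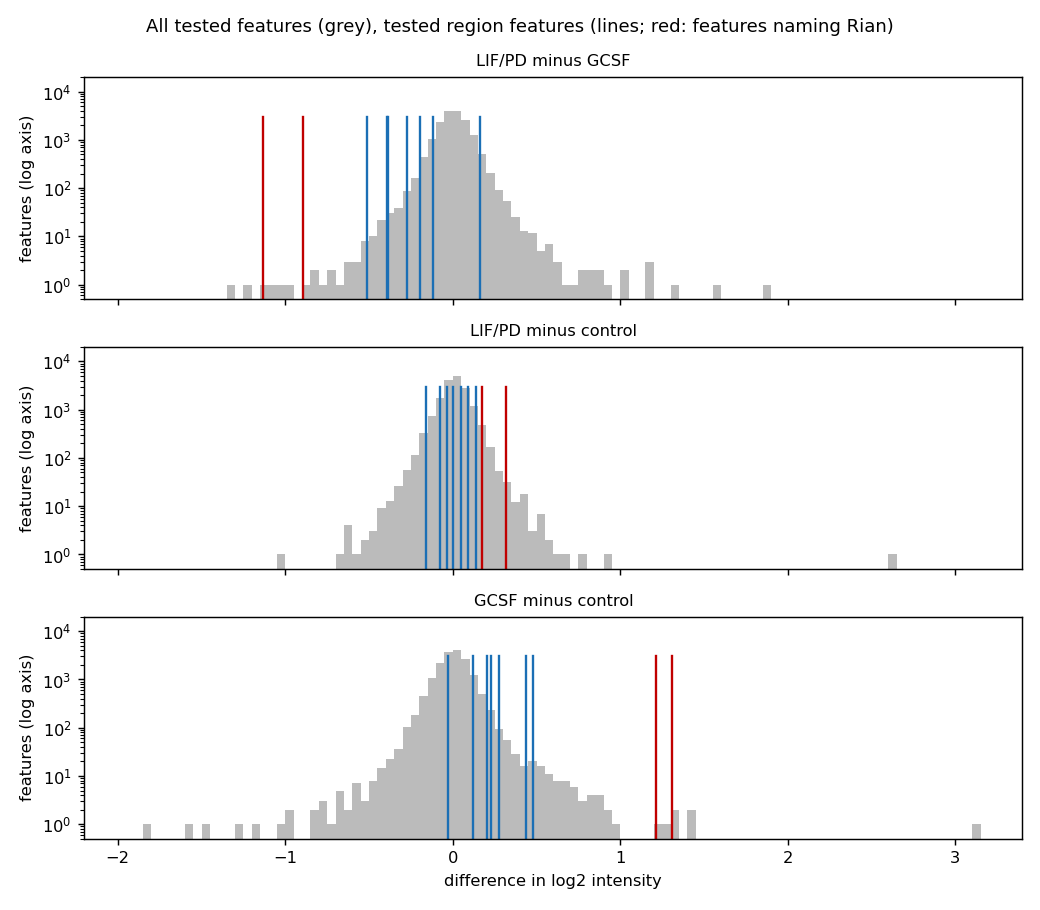
Histograms of the log2 differences of all 16912 tested features (grey, log count axis), with lines at the 8 tested members and the shared Rian feature (red for both features that name Rian, blue for the others). Both red lines lie in the far tail for LIF/PD minus GCSF and GCSF minus control. The region was chosen through Rian in the GCSF arrays, so nothing is read from that place. For LIF/PD minus control the lines lie between -0.16 and 0.32.

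RefSeq places 103 genes from Dlk1 to Dio3, of which 61 are microRNAs, and 51 annotated features of the array name at least 1 of them. In gene order, the difference of GCSF arrays over control was small at Meg3, greatest at Rian and small again towards Mirg. The 10 features from the start of Meg3 up to Rian had a median of 0.20 (range -0.05 to 0.38), and the 6 within Rian a median of 0.65 (0.06 to 1.31). The 24 features from the end of Rian up to Mirg had a median of 0.09 (-0.07 to 0.68), and the 8 within Mirg a median of 0.07 (-0.12 to 0.30). For LIF/PD arrays over control the medians of the same 4 stretches were -0.03, 0.11, -0.04 and 0.10. These stretches were set by the borders of Meg3, Rian and Mirg after values had been seen, 29 of the 51 features lay below the filter, and no test was made.

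Within Rian the features did not move alike. DQ267101, a small nucleolar RNA gene, read 5.77 and 5.81 in the LIF/PD arrays, 6.71 and 6.39 in the GCSF arrays, and 5.62 and 5.77 in the control arrays. DQ267102, another such gene close by, read 11.29 and 11.53 in the LIF/PD arrays, 11.34 and 11.40 in the GCSF arrays, and 11.25 and 11.36 in the control arrays. For the first, which lay below the filter, the GCSF arrays stood above the rest, by 0.86 over control, and for the second the groups overlapped, with 0.06.

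Beyond Rian, the microRNA genes next to it in gene order showed the larger differences of the cluster. Mir379 read 3.31 and 3.41 in the LIF/PD arrays, 4.39 and 3.83 in the GCSF arrays, and 3.53 and 3.34 in the control arrays. Mir380 read 5.05 and 5.24 in the LIF/PD arrays, 6.14 and 6.11 in the GCSF arrays, and 5.31 and 5.62 in the control arrays. For both, the GCSF arrays were the highest, by 0.68 and 0.66 over control, and Mir411 lay 0.53 above control. All 3 lay below the filter, and Mir379 was among the dimmer values of an array whose lowest is 2.29. Mir299a, which lies among them, differed by 0.01, and at the far end of the stretch Mir134, Mir668 and Mir485 differed by 0.02, 0.06 and -0.05. Of the 40 annotated features other than members and the shared Rian and Mirg features, 13 had both GCSF arrays above the other 4, against 9.72% of all features outside the control block. These features are neighbours of Rian in a region chosen through its GCSF values, so nothing is read from this count.

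The stretches around the starts of Meg3 and Rian are shown because the noncoding RNAs are read in that order. Each runs from 250 bases before to 50 after the start in RefSeq (GRCm38.p6, plus strand). Capitals mark matches, on either strand, to 4 common motifs. They are TGACGTCA for the cyclic AMP response element, TATAAA for the box bound by general factors, CCAAT for the box bound by nuclear factor Y, and TTCNNNGAA for the word bound by STAT factors.
Meg3, chr12:109540746-109541045: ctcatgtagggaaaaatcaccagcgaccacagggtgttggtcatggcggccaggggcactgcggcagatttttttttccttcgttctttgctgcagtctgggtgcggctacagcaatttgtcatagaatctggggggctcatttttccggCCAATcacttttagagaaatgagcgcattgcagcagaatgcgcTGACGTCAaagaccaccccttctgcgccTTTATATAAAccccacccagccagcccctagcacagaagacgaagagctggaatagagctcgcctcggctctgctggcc
Rian, chr12:109603695-109603994: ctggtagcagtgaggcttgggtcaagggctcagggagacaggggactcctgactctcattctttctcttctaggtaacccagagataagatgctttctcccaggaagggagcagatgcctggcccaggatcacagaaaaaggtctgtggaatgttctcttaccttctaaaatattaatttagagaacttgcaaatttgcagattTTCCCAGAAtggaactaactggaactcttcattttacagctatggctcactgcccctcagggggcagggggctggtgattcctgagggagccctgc
The Meg3 window holds TGACGTCA 57 bases before the start, a pair of overlapping TATAAA matches, 1 on each strand, and CCAAT 100 bases before it. Of 32851 such mouse windows, 1.79% hold TGACGTCA, 13.6% TATAAA and 37.4% CCAAT. The Rian window holds TTCNNNGAA 46 bases before the start, as do 8.30% of all windows. A match says only that these letters are there, and neither binding nor use of the annotated start was tested. The windows of Dlk1, Mirg and Dio3 and the second Meg3 window hold no TTCNNNGAA, which says only that these letters are not there. CpG dinucleotides numbered 13 in the Meg3 window and 0 in the Rian window, against a median of 7.

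Genes around and beyond the region gave the setting for these values. Of a list of 23 flanking symbols, which also holds Rtl1 from inside the region, 19 were tested, and none passed against control with limma in the LIF/PD arrays (0 at an unadjusted p under 0.05) or in the GCSF arrays (6 at an unadjusted p under 0.05). Over all tested features 6.59% had an unadjusted p under 0.05 for LIF/PD and 12.1% for GCSF against control, the shares to set beside such counts here. Their median differences from control were -0.00 for LIF/PD and 0.05 for GCSF, against 0.01 for all tested features in each. Wdr25 lay 0.20 ± 0.07 above control and Slc25a29, a mitochondrial carrier gene, lay 0.18 below (-0.18 ± 0.07) in the GCSF arrays. The largest differences of LIF/PD from control were those of Degs2 (0.11) and Cyp46a1 (-0.10). For LIF/PD against GCSF, 0 passed with limma and 2 had an unadjusted p under 0.05, against 11.8% of all tested features. The differences of Mok (-0.13) and Zfp839 (-0.12) were the largest there.

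Of 37 other imprinted genes 24 were tested, and in the GCSF arrays 1 passed and rose, Peg3, a zinc finger gene expressed from the paternal copy, by 0.25 ± 0.04 over control (limma, adjusted p = 0.0280). That call ended without either control array or the first GCSF array. The list's median was 0.01 in the GCSF arrays, equal to that of all tested features, and in the LIF/PD arrays 0 passed against control with limma, 1 of 24 had an unadjusted p under 0.05 and Peg3 differed by -0.00 ± 0.04. Peg3 was lower in LIF/PD than in GCSF arrays by -0.25 ± 0.04 (limma, adjusted p = 0.0342), a call that ended without any 1 of the 6 arrays. Of the others, Sgce differed from control by 0.20 in LIF/PD and 0.16 in GCSF arrays, and Airn differed by -0.20 in LIF/PD arrays from control and by -0.26 from GCSF arrays. A list of factors linked to setting, keeping, reading or erasing imprints had 18 tested genes. None of them passed in either treatment against control with limma. An unadjusted p under 0.05 (limma) was found for 0 of 18 in LIF/PD and 4 of 18 in GCSF arrays. The largest differences from control were those of Dppa3 (0.11) and Dnmt3a (0.08) in LIF/PD arrays, and of Zfp445 (0.20 ± 0.05) and Tet1 (0.14 ± 0.03) in GCSF arrays. For LIF/PD against GCSF, Zfp445 lay at -0.18 and Tet1 at -0.12.

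Among long noncoding RNA genes outside the region, 10 were tested, and in the GCSF arrays 1 was higher than control and 1 lower. Malat1, an abundant nuclear RNA, rose by 0.30 ± 0.05 (limma, adjusted p = 0.0219), and Platr8 fell by 0.76 ± 0.12 (limma, adjusted p = 0.0289). The call of Malat1 ended without either control array or the first GCSF array, and that of Platr8 without the second control, the second GCSF or either LIF/PD array. In the LIF/PD arrays none of the 10 passed against control with limma. An unadjusted p under 0.05 was found for 2, among them Malat1 (-0.18 ± 0.05) but not Platr8 (0.28 ± 0.12). Against the GCSF arrays, the LIF/PD arrays were lower in Malat1 (-0.47 ± 0.05) and higher in Platr8 (1.04 ± 0.12; limma, adjusted p = 0.00301 and 0.00894), the call of Platr8 ending without the second GCSF or either LIF/PD array.

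Of 302 microRNA and small nucleolar RNA genes with a feature outside the region 116 were tested, with 0 higher and 3 lower than control in the GCSF arrays (14 at an unadjusted p under 0.05, limma). Mir674 fell by 0.65 ± 0.06 and Snord57 fell by 0.38 ± 0.07, and the third was the host gene Mir100hg, which fell by 0.65 ± 0.10. The call of Snord57 ended without either control, the first GCSF or either LIF/PD array, and that of Mir100hg without either control or either GCSF array. In the LIF/PD arrays 0 of the 116 passed against control with limma, and 8 had an unadjusted p under 0.05, with Mir455 (-0.41) and Mir218-1 (-0.36) the largest differences. LIF/PD arrays were higher than GCSF arrays in Mir674 (0.70 ± 0.06) and Snord57 (0.48 ± 0.07), and lower in Mir15a (-0.42 ± 0.06; limma, adjusted p = 0.00205, 0.0170 and 0.0252). Mir100hg differed there by 0.50 ± 0.10, more than Snord57, and was not called (limma, adjusted p = 0.0681). The call of Snord57 ended without either LIF/PD array, and that of Mir15a without any 1 of the 6 arrays. The medians of the list, -0.04 for LIF/PD and -0.01 for GCSF over control, were close to those of all tested features.

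The genes whose levels were most like those of Rian over the 6 arrays were found among 235 tested features that varied by at least 0.5 log2. Trps1, a zinc finger repressor, had a Pearson r of 0.99, followed by the transcription factor gene Spic, the phosphatase gene Dusp10 and the small GTPase gene Rhob, each at 0.98. Pvr, Has2, Apobec3 and Btg2 followed at 0.97. In each of the 8, as in Rian, both GCSF arrays lay above the other 4, and r describes that separation of the arrays.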

How the data were processed

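Biotin-labelled total RNA was measured on 6 single-colour arrays, per the labels. The authors deposited 1 table of 34760 features whose values, between 2.29 and 14.50, were read as log2 intensity. The log base and the authors' background correction, summarization and normalization are not given in the sources used here, and the log2 values were used as deposited. Features were named through GEO's platform annotation, and 21640 carry 1 symbol. The 6573 features with identifiers below the first annotated one were set aside as a control block. A filter kept 16912 of the other 28187, those whose mean reached their 40th percentile (6.70). These were tested with limma 3.58.1 (R 4.3.3) in a model of 3 group means over 6 arrays, variances following intensity (3 residual, 8.4 total degrees of freedom), and two-sided p-values were Benjamini-Hochberg adjusted over all 16912 and called under 0.05. Members below the filter were read from a fit without it. A gene in a list was represented by its feature of highest mean. For arrays, the number of arrays limits the precision. Members, lists and tests were chosen with earlier results of these data known. Every feature of a member was named whatever its value, of each gene list outside the region the called genes and the largest differences, of the marker and label-check lists the called genes, and the 8 features most correlated with Rian. The fit was tested on simulated data.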

Additional observations from a re-analysis of the deposited data

How the results depend on the processing

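With 2 arrays a group, calls near the threshold rest on single arrays. The 3 called members of GCSF over control were 1 with a stricter filter at the 60th percentile, where Rian itself was not tested, 1 with a covariate, each array's median over the control block (chosen after seeing the data), and 1 to 2 when arrays were left out singly. The 3 of LIF/PD against GCSF were 1 without the filter, with the stricter filter, without an intensity trend, with only the 4 arrays compared and with that covariate, and 1 to 2 with arrays left out. LIF/PD against control gave 0 members under every setting tried. Over the whole array, the 198 calls of GCSF against control were 125 without a trend, 99 with the covariate and 88 to 164 with arrays left out. The 143 of LIF/PD against GCSF were 71, 26 and 31 to 91 under the same settings, and 82 with only the 4 arrays. The 11 of LIF/PD against control were 1 without a trend and 1 to 9 with arrays left out. Left-out arrays also cost power, and the cause of the other changes was not tested. Member calls that involve the GCSF arrays rest on the values through which the region was chosen, and support nothing. The replicate numbers do not pair samples by any label, and deviations of same-numbered arrays correlated at 0.01 to 0.10. With the replicate number as a block the called members were 3, 0 and 4 and all calls 195, 9 and 165, for GCSF against control, LIF/PD against control and LIF/PD against GCSF. No member called in a comparison changed sign. Among the others, Dlk1 in GCSF against control lay between -0.13 and 0.07.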
